A study of Mus musculus with 6 samples.

Results

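The guidance genes described here encode semaphorins, plexins, Eph receptors, ephrins, Slits, Robo receptors, netrins with netrin-Gs, and Unc5 receptors. They were chosen by name, as every probe of the raw bead array table whose gene symbol belongs to these families. The rule found 95 of 25697 probes, for 63 of 18120 gene symbols, and it used no measured value. RNA was taken from tracheas of C57BL/6 mouse embryos at E18.5. The first group is 3 pools whose genotype is labelled Sox9-/-, with Sox9 lost from the tracheal mesenchyme and the rings of cartilage missing. The protein is a transcription factor that chondrocytes need in order to form. The second group is 3 control pools labelled Sox9+/+, of the same stage and background. Each pool joined 3 tracheas, 9 per group, which came from 7 pregnant females and were combined at random, so a pool averages several embryos. The driver of the Sox9 deletion and the further alleles of either group are not given in the sources used here.

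The arrays detected similar numbers of probes, but those of the mutant-labelled pools were brighter. Between 14468 and 14726 probes were detected per array, where detected means a detection p below 0.05 against the array's negative controls. Median raw intensities were 205 to 211 in the mutant-labelled pools and 183 to 198 in the control pools, so every mutant-labelled array was above every control array before normalisation. The codes of all 6 arrays share 1 number and end in A to C for the control pools and D to F for the mutant-labelled pools. If the number names a slide and the letter a place on it, group and place cannot be told apart. The only Sox9 probe read 202, 185 and 196 raw units in the mutant-labelled pools, against 148, 141 and 151 in the control pools, where it was not above background on any array. In the mutant-labelled pools it was just detected, with detection p from 0.0163 to 0.0426. Set over the lowest detected signal of the control arrays, the mutant-labelled mean was at least 1.12-fold higher. The limma adjusted p of 0.0163 was computed with the control values as read, below background, so it does not test this bound. Whether the probe lies in the deleted part is not given in the sources used here. The probe thus gave no support to the labels, and its direction, read near background, goes against them, so the groups are called mutant-labelled and control. Col2a1, the main collagen of cartilage, was at 4.94, 5.41 and 5.67 in the mutant-labelled pools, against 11.72, 11.68 and 11.70 in the control pools (log2 intensity, limma adjusted p = 5.5e-05). The mutant-labelled values were at or near background, with the probe detected in 2 of these 3 pools, so the size of the fall is not given. Unlike that of the Sox9 probe, the direction of Col2a1 goes with the missing cartilage described for the mutant-labelled group.

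These families carry signals that attract or repel growing cell processes. Secreted and membrane-bound semaphorins act through plexins, often with neuropilins as coreceptors. Eph receptors are tyrosine kinases that bind ephrins on neighbouring cells, and both partners can signal. Slits bind Robo receptors, and netrins bind Dcc, neogenin and Unc5 receptors. All have members with a role in axon guidance, and they also act in blood vessels, epithelia and mesenchyme. In a trachea they may therefore be made by nerves, vessels, epithelium, muscle or connective tissue, and bulk RNA does not separate these sources.

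Most of the guidance families were read, but plexins and netrins were read poorly. A gene was tested where a probe was detected on at least 3 of 6 arrays, which held for 45 of the 63 genes and 56 of the 95 probes. Of the 95 probes, 48 were detected on all 6 arrays and 27 on none. The tested genes were 14 of 19 semaphorins, 3 of 8 plexins, 12 of 13 Eph receptors, 6 of 8 ephrins, 2 of 3 Slits, 3 of 3 Robo receptors, 2 of 5 netrin and netrin-G genes, and 3 of 4 Unc5 receptors. The plexin genes Plxna1, Plxna3, Plxna4 and Plxnd1 and the netrin gene Ntn1 were not detected on any array, each by 1 probe. The 18 genes without a test read 143 to 199 raw units in the mutant-labelled pools and 130 to 186 in the control pools. Beside those 5 they were Efna2, Efna3, Epha6, Ntn4, Ntng2, Plxnc1, Sema3d, Sema3e, Sema3g, Sema5b, Sema6a, Slit1 and Unc5d. A probe at background shows that this probe did not read the gene here, not that the gene was silent.

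**Figure D1:**
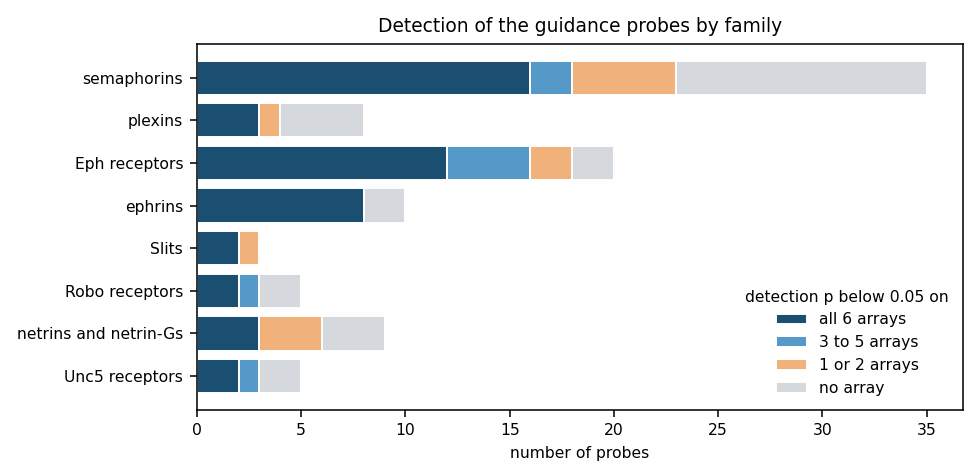
Number of guidance probes by family (x axis, rows are families), coloured by the number of arrays on which the probe had a detection p below 0.05. All 6 arrays detected 16 of 35 semaphorin probes, 12 of 20 Eph receptor probes and 3 of 8 plexin probes.

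Of the 45 tested guidance genes, 1 rose and 3 fell in the mutant-labelled pools. The semaphorin gene Sema4d rose, and the netrin gene Ntn3, the Eph receptor gene Ephb1 and the ephrin gene Efna5 fell, by 1.55-fold to 1.96-fold. The other 41 did not pass limma's test at an adjusted p of 0.05 over all 10831 genes. The 4 calls are 8.89% of the tested members, where 5.52% of all genes tested were called, 2.16% higher and 3.36% lower. At an unadjusted p below 0.05 there were 12 members, or 26.7%, against 25.2% of all genes. The 2 groups did not overlap in 10 members (22.2%), 8 lower and 2 higher, against 31.4% of all genes, 16.1% lower and 15.3% higher. The median log2 change of the tested members was -0.090, with 20 above and 25 below 0, and that of all genes was 0.0063. The share at an unadjusted p below 0.05 lies near the background, and the share without overlap is below it. In tissue RNA, fewer cells that make a transcript and less transcript per cell cannot be told apart. None of the 4 calls held in all 6 fits that each left out 1 pool: Ephb1 passed in 3, Ntn3 in 2, and Sema4d and Efna5 in 0. In the authors' deposited table, 2 of the 62 listed member probes had an adjusted p below 0.05, those of Ntn3 (0.0254) and Ephb1 (0.0318), while Sema4d stood at 0.0522 and Efna5 at 0.0572.

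**Figure D2:**
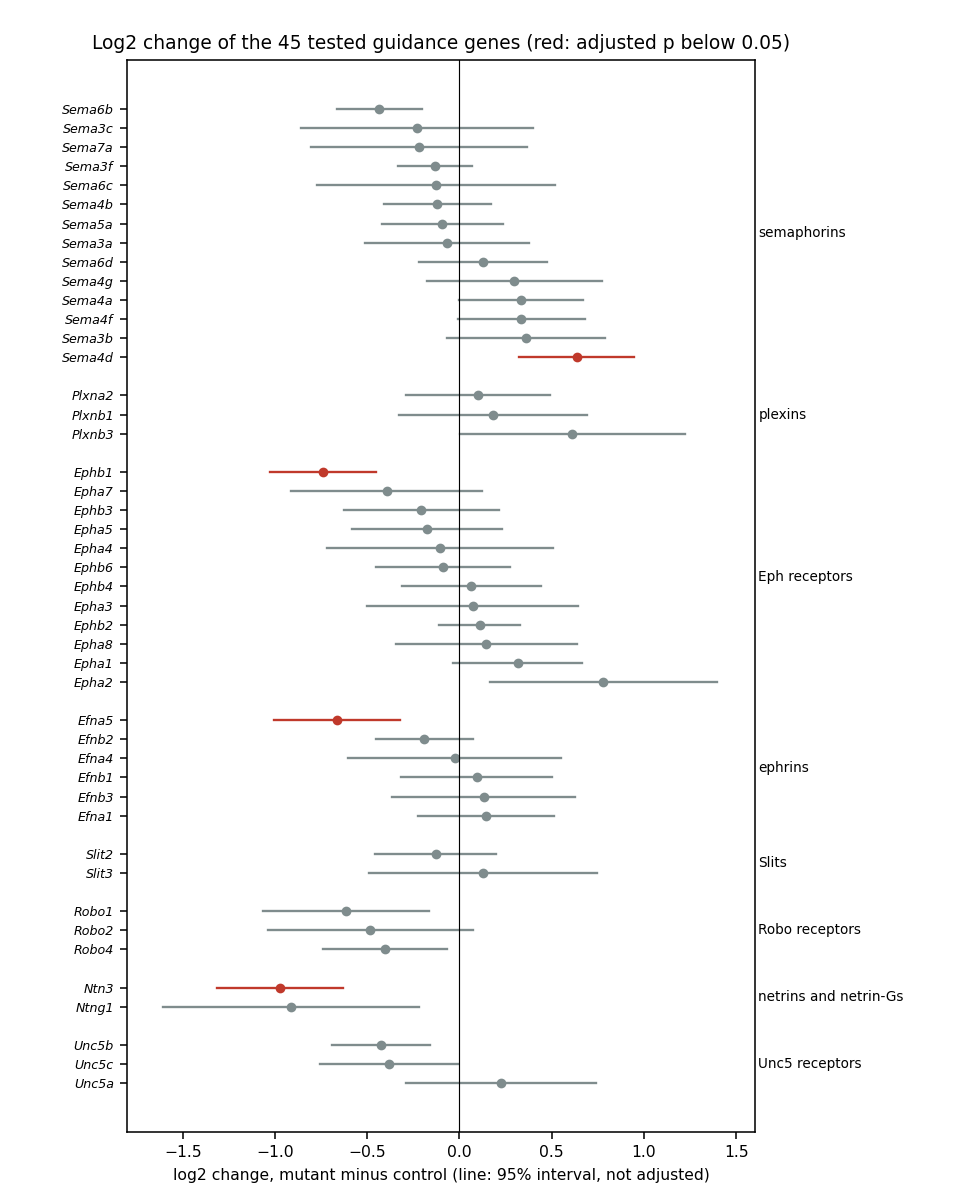
Log2 change (x axis, mutant-labelled minus control) of the 45 tested guidance genes in rows by family; points are limma estimates and lines their 95% intervals, not adjusted. The 4 genes in red passed at an adjusted p of 0.05, with Ntn3 at -0.97, Ephb1 at -0.74, Efna5 at -0.66 and Sema4d at 0.64.

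The upstream sequences of these 4 genes are shown because these are the members that passed the test. They are the 250 bases before the annotated start in RefSeq (GRCm38.p6), 5′ to 3′ on the strand of the gene, which is the minus strand for all 4. Capitals mark 3 motifs, searched on both strands. The SOX core was AACAAT, which reads ATTGTT on the other strand. The GC box was GGGCGG, which reads CCGCCC on the other strand, and the TATA box was TATAAA, which reads TTTATA there. No printed window held more than 1 kind of motif. For Sema4d only the second of 3 annotated starts is printed, the only 1 of them with a SOX core. The printed windows therefore do not give the share of starts that hold a motif.
Ntn3 (chr17:24209388-24209637): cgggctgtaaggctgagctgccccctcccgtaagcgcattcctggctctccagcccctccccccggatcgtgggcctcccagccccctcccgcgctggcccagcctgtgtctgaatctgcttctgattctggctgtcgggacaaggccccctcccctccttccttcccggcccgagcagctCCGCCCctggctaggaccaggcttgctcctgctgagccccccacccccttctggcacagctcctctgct
Ephb1 (chr9:102354694-102354943): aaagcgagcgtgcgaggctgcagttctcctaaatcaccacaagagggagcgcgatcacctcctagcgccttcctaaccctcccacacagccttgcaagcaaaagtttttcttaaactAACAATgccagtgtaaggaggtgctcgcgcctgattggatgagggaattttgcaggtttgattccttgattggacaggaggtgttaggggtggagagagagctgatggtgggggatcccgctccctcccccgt
Efna5 (chr17:62881318-62881567): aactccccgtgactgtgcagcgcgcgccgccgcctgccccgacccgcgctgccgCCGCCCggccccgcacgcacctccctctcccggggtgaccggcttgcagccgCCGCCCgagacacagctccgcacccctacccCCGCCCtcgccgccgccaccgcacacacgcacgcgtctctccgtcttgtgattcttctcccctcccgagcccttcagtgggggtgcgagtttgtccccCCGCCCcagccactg
Sema4d, the second of 3 annotated starts (chr13:51748811-51749060): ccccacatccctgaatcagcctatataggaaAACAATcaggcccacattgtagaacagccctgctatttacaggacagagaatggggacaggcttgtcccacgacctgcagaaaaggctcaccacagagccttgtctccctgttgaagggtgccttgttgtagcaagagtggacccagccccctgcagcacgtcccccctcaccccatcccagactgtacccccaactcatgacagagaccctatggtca

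The Ephb1 window held 1 SOX core, and the Sema4d window printed held 1. The other Sema4d starts, not printed, held 0, as did the windows of Ntn3 and Efna5. The Efna5 window held 4 GC boxes and was 74.8% G and C, the Ntn3 window held 1 GC box, and none of the printed windows held a TATA box. Of 32851 such windows of all genes, 9.42% held a SOX core, 32.7% a GC box and 12.4% a TATA box. Of the 68 windows found for 54 of the 63 guidance genes, 4.41% held a SOX core, 67.6% a GC box and 2.94% a TATA box, and their median G and C content was 64.2%, against 52.4% over all windows. These matches describe the letters alone.

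Among the ligands, 1 of 14 tested semaphorins rose and 0 fell by limma's test, and 2 (14.3%) had an unadjusted p below 0.05. Over all genes, 2.16% were called higher and 25.2% had such an unadjusted p. Sema4d, a membrane-bound semaphorin that binds the plexin encoded by Plxnb1, read 6.34, 6.07 and 6.49 in the mutant-labelled pools, against 5.79, 5.59 and 5.60 in the control pools (log2 intensity). Every mutant-labelled pool was above every control pool. The log2 change was 0.64 (SE 0.13, adjusted p = 0.0439), from 234 raw units in the mutant-labelled pools and 183 in the control pools on average. The probe was dim, and without background correction the change was 0.20 and did not pass (adjusted p = 0.102).

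Sema6b, a transmembrane semaphorin, read 5.94, 5.83 and 5.84 in the mutant-labelled pools, against 6.16, 6.37 and 6.37 in the control pools. The groups did not overlap, but the log2 change of -0.43 (SE 0.10) missed the threshold (adjusted p = 0.0539). Its raw means were 211 in the mutant-labelled pools and 209 in the control pools, so the raw values were level, and without background correction the change was -0.14. The second Sema6b probe that passed the detection filter gave -0.49. Its raw values overlapped too, at 193, 182 and 203 in the mutant-labelled pools and 192, 183 and 199 in the control pools. Sema4a, also membrane-bound, read 10.79, 11.05 and 10.93 in the mutant-labelled pools, against 10.85, 10.40 and 10.52 in the control pools. The groups overlapped, and its log2 change was 0.33 (SE 0.14, adjusted p = 0.203).

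Sema3f, a secreted semaphorin that acts through neuropilins, read 11.40, 11.41 and 11.42 in the mutant-labelled pools, against 11.57, 11.45 and 11.60 in the control pools. The groups did not overlap, yet the 95% interval of the log2 change ran from -0.33 to 0.07 (adjusted p = 0.380). The other 10 tested semaphorins had log2 changes between -0.23 (Sema3c) and 0.36 (Sema3b), and all of them had groups that overlapped. For Sema3b the 2 kept probes differed in sign, 0.36 and -0.19, so no direction can be read.

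Of the 3 tested plexins, the receptors of semaphorins, none passed limma's test, and 1 had an unadjusted p below 0.05, as did 25.2% of all genes. Plxnb3, which binds the semaphorin encoded by Sema5a, read 6.98, 7.19 and 7.73 in the mutant-labelled pools, against 6.26, 6.74 and 7.06 in the control pools. The highest control pool was above the lowest mutant-labelled pool, and the log2 change was 0.61 (SE 0.26, adjusted p = 0.198). Its ligand gene Sema5a had a log2 change of -0.094, with a 95% interval from -0.42 to 0.23. The Sema4d receptor gene Plxnb1 read 6.48, 6.99 and 7.35 in the mutant-labelled pools, against 6.88, 6.69 and 6.71 in the control pools. The mutant-labelled pools spread on both sides of the control pools, and the 95% interval of the change was -0.33 to 0.69. Plxna2, a receptor for secreted and transmembrane semaphorins, had a log2 change of 0.10 with an interval from -0.29 to 0.49.

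**Figure D3:**
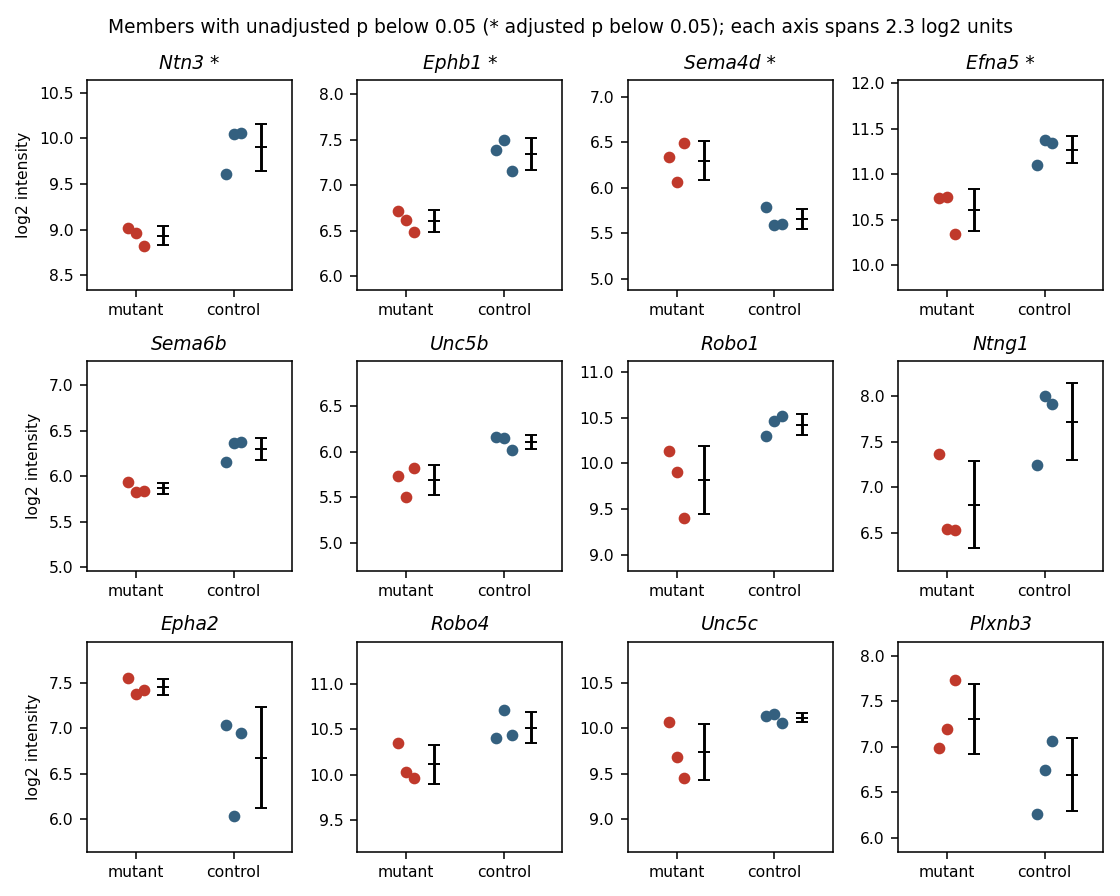
Log2 intensity (y axes, each spanning the same number of units) of the 12 guidance genes with an unadjusted p below 0.05 in the 3 mutant-labelled pools (left, red) and the 3 control pools (right, blue); bars are means and SDs, and stars mark adjusted p below 0.05. For Ntn3 the points lie at 8.82 to 9.02 in the mutant-labelled pools and at 9.61 to 10.06 in the control pools, and for Plxnb3 the groups overlap.

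Of the 12 tested Eph receptors, 1 fell, where 3.36% of all genes were called lower. Ephb1, a receptor for ephrin-B ligands, read 6.72, 6.62 and 6.48 in the mutant-labelled pools, against 7.39, 7.50 and 7.15 in the control pools. All mutant-labelled pools lay below all control pools, and the log2 change was -0.74 (SE 0.12, adjusted p = 0.0259). Its size depended on the background step, with -0.35 without background correction, where it still passed (adjusted p = 0.0232).

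Epha2, an Eph receptor of epithelial cells, had the largest positive change among the tested members, but its control pools were spread. It read 7.55, 7.38 and 7.42 in the mutant-labelled pools, against 7.04, 6.04 and 6.95 in the control pools. The mutant-labelled pools were all higher, and control pool 2 stood lowest. The log2 change was 0.78 (SE 0.26, adjusted p = 0.127), and it was 0.46 without control pool 2. Epha1, the other receptor known mainly from epithelia, read 8.12, 8.11 and 7.96 in the mutant-labelled pools, against 8.04, 7.70 and 7.51 in the control pools. These groups overlapped, and the change of 0.32 (SE 0.15) did not pass (adjusted p = 0.238). Epithelial markers, 8 of 9 tested with none called by limma, summed to 27477 to 29446 units of normalised intensity in the mutant-labelled pools and 21857 to 24894 in the control pools, and their part in these values was not tested.

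Ephb2 was tightly measured, at 9.92, 9.88 and 9.89 in the mutant-labelled pools and 9.90, 9.67 and 9.80 in the control pools. The 95% interval of its log2 change was -0.11 to 0.33, so a change as large as that of Ephb1 lies outside it. Ephb4, the receptor that marks veins, had a log2 change of 0.07, with an interval from -0.31 to 0.44. The other 7 tested Eph receptors had log2 changes between -0.40 (Epha7) and 0.15 (Epha8), and none had groups that stood apart. The 3 kept Epha7 probes differed in sign, from -0.40 to 0.20. Epha4, Epha5 and Epha8 were each below background on at least 1 array.

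Among the ephrins, Efna5 fell and the other 5 tested members had intervals that held 0. Efna5, a membrane-anchored ligand of EphA receptors, read 10.73, 10.74 and 10.34 in the mutant-labelled pools, against 11.10, 11.37 and 11.34 in the control pools. The groups did not overlap, and the log2 change was -0.66 (SE 0.14, adjusted p = 0.0480). The change was -0.62 without background correction. With the arrays scaled by their medians it was -0.60 and did not pass (adjusted p = 0.0635). Nor did it pass with the kept probes of a gene averaged (-0.54, limma adjusted p = 0.0735). Over 10 other settings of the processing, these among them, Efna5 passed in 5. The second, dim Efna5 probe gave -0.41 and did not pass on its own (limma adjusted p = 0.169). Its raw values overlapped, at 194, 205 and 192 in the mutant-labelled pools and 182, 191 and 204 in the control pools.

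Efnb2, the ephrin that marks arteries and a ligand of EphB receptors, read 5.86, 5.82 and 5.83 in the mutant-labelled pools, against 5.82, 6.15 and 6.10 in the control pools. Its groups overlapped through control pool 1, and the interval of the change was -0.45 to 0.07. Efna1, which binds the receptor encoded by Epha2, had a log2 change of 0.15 with an interval from -0.22 to 0.51. The log2 changes of Efnb1, Efnb3 and Efna4 were 0.09, 0.13 and -0.027.

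Neither tested Slit passed limma's test, and neither had an unadjusted p below 0.05. Slit2, a secreted ligand of Robo receptors, read 9.46, 9.46 and 9.22 in the mutant-labelled pools, against 9.26, 9.69 and 9.58 in the control pools. The groups overlapped, and the 95% interval of the change was -0.46 to 0.20. Slit3, a second Slit ligand, had a log2 change of 0.13 with a wide interval, -0.49 to 0.75.

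All 3 Robo receptors had negative changes, but 0 passed limma's test and 2 had an unadjusted p below 0.05. Of all genes, 25.2% had such an unadjusted p. Robo1, a Slit receptor of axons and other cells, read 10.14, 9.90 and 9.40 in the mutant-labelled pools, against 10.30, 10.47 and 10.52 in the control pools. The groups did not overlap, the mutant-labelled pools were spread, and the change was -0.61 (SE 0.19, adjusted p = 0.107). Robo1 passed in 1 of 10 other settings, with trend and robust variances (limma adjusted p = 0.0495). Robo4, the Robo receptor of endothelial cells, read 10.35, 10.03 and 9.96 in the mutant-labelled pools, against 10.40, 10.71 and 10.44 in the control pools. These too did not overlap, with mutant-labelled pool 1 just under control pool 1, and the change was -0.40 (SE 0.14, adjusted p = 0.141). Endothelial markers, of which 6 of 7 were tested and none called by limma, summed to 6111 to 7395 units in the mutant-labelled pools and 6971 to 8235 in the control pools, on the linear scale of normalised intensity. Their part in the Robo4 values was not tested. Robo2, near background, had a log2 change of -0.48 (adjusted p = 0.255), and of -0.25 without mutant-labelled pool 3. Its raw means were level, at 200 in the mutant-labelled pools and 199 in the control pools.

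Ntn3 had the lowest adjusted p and the largest fall among the tested members. It encodes a netrin, a secreted ligand of the Dcc and Unc5 receptors. It read 9.02, 8.96 and 8.82 in the mutant-labelled pools, against 9.61, 10.05 and 10.06 in the control pools. The groups stood apart, with control pool 1 nearest to the mutant-labelled pools. The log2 change was -0.97 (SE 0.14, adjusted p = 0.0200), a 1.96-fold fall. The change was -0.80 without background correction (adjusted p = 0.00487). The second Ntn3 probe gave -0.98, but did not pass where each kept probe was tested on its own (limma adjusted p = 0.0773).

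Ntng1, a membrane-anchored netrin-G that does not bind Dcc or Unc5 receptors, had a change of similar size with a larger error. It read 7.37, 6.54 and 6.53 in the mutant-labelled pools, against 7.24, 8.01 and 7.92 in the control pools. Mutant-labelled pool 1 lay above control pool 1, so the groups overlapped, and the change of -0.91 (SE 0.29) did not pass (adjusted p = 0.117). No other Ntng1 probe passed the detection filter. For 1 of them the authors' deposited table gives a log2 change of 0.25 (limma adjusted p = 0.425), in the other direction. The Ntn1, Ntn4 and Ntng2 probes were not read well enough for a test.

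The netrin receptors of the Unc5 family did not pass either, although 2 of the 3 tested had an unadjusted p below 0.05. That share was 25.2% over all genes. Unc5b, a receptor also found on endothelial tip cells, read 5.73, 5.50 and 5.82 in the mutant-labelled pools, against 6.16, 6.15 and 6.02 in the control pools. The groups did not overlap, and the change was -0.43 (SE 0.11, adjusted p = 0.0756), or -0.13 without background correction. The Unc5b probe was dim, with raw means of 203 in the mutant-labelled pools and 200 in the control pools, and its raw values overlapped. Unc5c, a netrin receptor in axon repulsion, read 10.06, 9.69 and 9.45 in the mutant-labelled pools, against 10.14, 10.15 and 10.06 in the control pools. Mutant-labelled pool 1 and control pool 3 stood level, and the change was -0.38 (SE 0.16, adjusted p = 0.192). Unc5a, below background on some arrays of both groups, had a log2 change of 0.23 with an interval from -0.29 to 0.74.

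**Figure D4:**
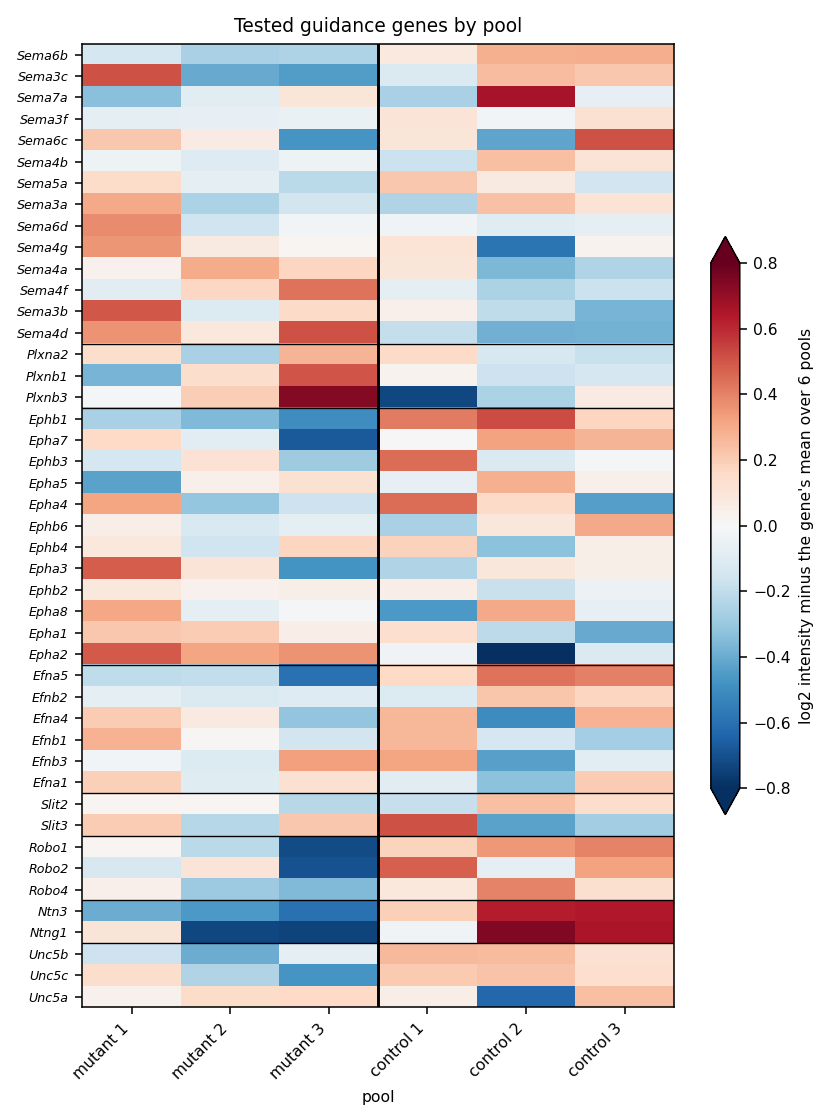
Deviation of each tested guidance gene (rows, by family, ordered by log2 change) from its mean over the 6 pools, in log2 units, for the mutant-labelled pools (left) and the control pools (right). The rows of Ntn3, Ephb1 and Efna5 are low in all 3 mutant-labelled pools and that of Sema4d is high, and in all but 10 of the 45 rows the groups overlap.

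By role, 24 ligand genes were tested, with 1 rise, 2 falls and a median log2 change of -0.080. The 21 tested receptor genes had 0 rises and 1 fall, and their median was -0.090. Of all genes tested, 2.16% were called higher and 3.36% lower, and their median was 0.0063. A difference between the roles was not tested.

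From a list of 71 coreceptors, transducers and cytoskeletal regulators of guidance signalling, 49 were tested, 1 rose and 1 fell, and the median log2 change was -0.075. The calls are 4.08% of the tested partners, near the 5.52% of all genes, and the groups did not overlap in 19 (38.8%), against 31.4% of all genes. Tiam1, which activates the GTPase Rac downstream of Eph and ephrin signals, read 11.63, 11.72 and 11.78 in the mutant-labelled pools, against 11.01, 11.09 and 11.11 in the control pools. The groups were well apart, and the change was 0.64 (SE 0.087, adjusted p = 0.0169). Flrt2, a membrane protein that binds Unc5 receptors, read 9.16, 8.89 and 8.68 in the mutant-labelled pools, against 9.57, 9.95 and 9.68 in the control pools. It fell by 0.82 on the log2 scale (SE 0.16, adjusted p = 0.0361). Both lost their call in 4 of the 6 fits without 1 pool, with adjusted p up to 0.0773 for Tiam1 and 0.124 for Flrt2.

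The other 47 tested partners did not pass. Those tested in all were 10 coreceptors, with Flrt2 the 1 that fell, 12 transducers of semaphorins and plexins, 11 of Eph and ephrin signals, with Tiam1 the 1 that rose, 5 of Slit and Robo signals, 5 of netrin signals and 6 shared cytoskeletal genes. Dpysl4 and Dpysl2, of the collapsin response mediator family that acts below semaphorin receptors, had log2 changes of -0.62 (adjusted p = 0.0609) and -0.33 (adjusted p = 0.0986). In the Slit and Robo role, the actin regulators Cap1 and Evl had log2 changes of -0.93 (SE 0.36, adjusted p = 0.169) and -0.32 (adjusted p = 0.243). In the netrin role, the Unc5-binding kinase gene Dapk1 had a log2 change of 0.67 (adjusted p = 0.0968) and Maged1 of -0.13 (adjusted p = 0.458). The LIM kinase genes Limk2 and Limk1, which control cofilin, had log2 changes of 0.27 (adjusted p = 0.120) and -0.19 (adjusted p = 0.247).

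Markers of several cell types differed between the groups beside these values. Of 9 chondrocyte markers 7 were tested and 6 fell, and their summed level was 1245 to 1419 in the mutant-labelled pools and 9415 to 10948 in the control pools. Of 11 neuronal markers 5 were tested and 1, Stmn2, rose, with sums of 2471 to 2962 in the mutant-labelled pools and 1735 to 2059 in the control pools. Fibroblast markers summed to 34586 to 39998 in the mutant-labelled pools and 42177 to 46647 in the control pools, with 2 of 7 lower. Smooth muscle sums, with 2 of 5 lower, were 15807 to 23198 in the mutant-labelled pools and 22218 to 30198 in the control pools. Macrophage sums, with 1 of 6 higher, were 3068 to 3274 in the mutant-labelled pools and 2755 to 3523 in the control pools, and both of these overlapped. Skeletal muscle sums, with none of 6 called by limma, varied within groups, from 4120 to 19974 in the mutant-labelled pools and from 871 to 11675 in the control pools. The part of these cell types in the guidance gene values was not tested.

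**Figure D5:**
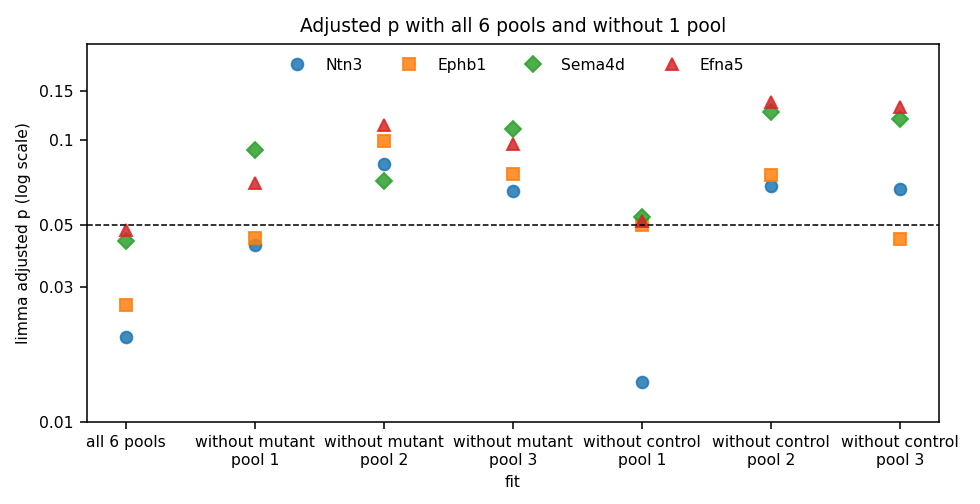
Adjusted p (y axis, log scale) of Ntn3, Ephb1, Sema4d and Efna5 in the fit of all 6 pools and in the 6 fits that each left out 1 pool; the dashed line marks 0.05. All 4 lie under the line with all 6 pools, and without mutant-labelled pool 2 all 4 lie above it, between 0.0716 and 0.113.

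Leaving out single pools moved the calls more than the sizes. Over the 6 fits without 1 pool, the log2 change was -1.12 to -0.89 for Ntn3, -0.84 to -0.67 for Ephb1, -0.75 to -0.54 for Efna5 and 0.54 to 0.75 for Sema4d. Adjusted p reached 0.0823 for Ntn3, 0.0994 for Ephb1, 0.136 for Efna5 and 0.126 for Sema4d. Without mutant-labelled pool 2, mutant-labelled pool 3 or control pool 2, 0 of 45 members passed limma's test. In these fits 10, 8 and 9 members had an unadjusted p below 0.05, against 12 with all pools. With all pools that share was near the 25.2% of all genes, and the share of all genes is not given for these fits. Over all genes 84, 159 and 130 were called in these fits, against 598 with all pools. Without control pool 3 only Ephb1 passed, with 128 genes called in all, and without mutant-labelled pool 1 Ntn3 and Ephb1 passed, with 375 in all. Without control pool 1 Ntn3, Ephb1 and Sema6b passed, with 564 in all, and the adjusted p of Sema6b was 0.0422.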

How the data were processed

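RNA of 3 mutant-labelled and 3 control pools was read on an Illumina bead array. For each probe and array, the deposited raw table gives an average bead intensity with its standard error, a bead count (median 38 or 39 beads per probe) and a detection p-value, per the file headers. The authors used R 3.2.3 and limma 3.26.9, per the submitters' processing notes. The log2 values they deposited for the series lie within 0.0206 of those computed here. The authors' deposited table gives log2 fold changes, p-values, and t and log-odds scores, which were only copied.

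Raw intensities were corrected and quantile normalized with neqc (limma 3.58.1, R 4.3.3, background from the detection p-values, offset 16). The detection filter kept 14711 probes. Gene symbols were updated through a RefSeq table (GRCm38.p6): 12036 were current, 5218 updated and 866 kept. The kept probe with the highest mean stood for a gene, which left 10831. limma's lmFit and eBayes then gave the two-sided test of mutant-labelled minus control, at a Benjamini-Hochberg adjusted p of 0.05 across the 10831 genes. Intervals are 95% and not adjusted. The spread behind each p-value is that among pools. A marker sum adds the normalised intensities of the tested markers. Some marker results are not reported here. The test was tried on simulated data first.

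The members and lists were chosen with earlier results of these data known. Named were members that passed, per family the 3 smallest p-values and the member with the highest mean, and partners that passed or the 2 smallest p-values in a role; any other gene was named after its values were seen. Alternatives were other background, offset, scaling, source, filter, probe, variance and threshold settings, blocking on pool number, and fits without 1 pool.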

Additional observations from a re-analysis of the deposited data

How the results depend on the processing

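The count of guidance genes called higher, 1 in the report, was 0 without background correction, without a detection filter, and with trend and robust variances, and 0 in each fit without 1 pool. The count called lower, 3 in the report, was 5 at an adjusted p threshold of 0.10 (Ntn3, Ephb1, Efna5, Sema6b and Unc5b), and 0 to 3 without 1 pool. That count was 2 with median scaling, without a detection filter and with each probe on its own. It was 4 with only probes detected on all 6 arrays and with trend and robust variances. With probes averaged it stayed at 3, but Sema6b took the place of Efna5. Over all genes, 598 in the report, 949 were called without background correction, 391 without a detection filter, 1086 with trend and robust variances, 1368 at 0.10 and 84 to 564 without 1 pool. The count of partner genes, 2 in the report, was 8 without background correction, 4 with an offset of 50, 1 without a detection filter, 4 with each probe on its own, 4 with probes averaged, 8 with trend and robust variances, 9 at 0.10 and 0 to 5 without 1 pool. The cause of these shifts was not tested.

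The pool numbers shared by the groups do not pair them, since the design states random pooling; same-numbered pools correlated at -0.0094, -0.085 and -0.10 in their deviations. With pool number as a replicate block, 0 guidance genes were called higher, 0 lower and 0 partners by limma, with 123 genes in all. In that fit 14 members had an unadjusted p below 0.05, and the share of all genes at that level is not given for it. Of 382 recomputed values of the 24 named members, 344 kept direction and side of the threshold, 30 lost a call and 4 gained one. The sign turned for 4 members that had not passed, whose changes without 1 pool were -0.026 to 0.41 for Plxnb1, -0.0088 to 0.26 for Plxna2, -0.053 to 0.42 for Slit3 and -0.034 to 0.40 for Unc5a. The partner Limk2 turned to -0.022 with probes averaged. Without background correction the changes of Sema4d, Sema6b and Unc5b were 0.20, -0.14 and -0.13.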

Other observations

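Some probes of these families carry other names in the raw table and fall outside the rule. The probe listed as Gm484, now Ntn5 through RefSeq, was detected on all 6 arrays and read 6.33, 6.31 and 6.34 in the mutant-labelled pools, against 6.51, 7.19 and 7.05 in the control pools (log2 intensity). Its groups did not overlap, and the change of -0.59 (SE 0.18) did not pass (limma adjusted p = 0.101). The probe listed as 6430702L12, now Sema3e, was also detected on all 6 arrays, although the probe named Sema3e was detected on none. It read 5.99, 5.71 and 6.09 in the mutant-labelled pools, against 5.36, 6.21 and 6.46 in the control pools, which overlap. The probe listed as A330090H18, now Epha10, was not detected on any array.

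Of 10 guidance genes with more than 1 kept probe, 3 had probes that differed in sign, among them Efna4, whose changes were -0.027 and 0.016.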
